A study of Schizosaccharomyces pombe with 4 samples.

Results

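The intervals described here are the stretches of RNA polymerase II signal in the fission yeast Schizosaccharomyces pombe that lay outside protein-coding genes. An interval was counted as outside when its midpoint fell in no protein-coding gene, taken from annotated start to annotated end on assembly ASM294v3. By this rule 318 of 2851 intervals were outside in abp1Δ cells (11.2%, 95% Wilson interval 10.1 to 12.4) and 431 of 3242 in wild-type cells (13.3%, 12.2 to 14.5). Bases outside protein-coding genes made up 23.3% of the genome, so their share of the intervals was below their share of the space in both lists. The abp1Δ group carried a deletion of abp1, which encodes a homolog of the centromere protein CENP-B. Strain background, mating type and the number of cultures are not given in the labels. Cells of both genotypes grew exponentially in YES, a rich medium, and were fixed with 1% formaldehyde. Polymerase phosphorylated on serine 5 of its C-terminal repeat (Ser5P) was immunoprecipitated and the DNA sequenced, giving 1 deposited list of intervals per genotype. No replicate exists, so the values describe 2 libraries and carry no test between genotypes. The deleted gene, SPBC1105.04c, had no interval in either list, so these lists do not check the deletion.

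Serine 5 is phosphorylated as polymerase II leaves a promoter, and the mark is carried into early elongation. Besides messenger RNAs, polymerase II makes most spliceosomal small nuclear RNAs (snRNAs), many small nucleolar RNAs (snoRNAs), which guide the cutting and modification of ribosomal RNA, and long non-coding RNAs (lncRNAs). RNA polymerase III makes transfer RNAs, 5S ribosomal RNA and the U6 snRNA, and RNA polymerase I makes the large ribosomal RNAs. In the compact fission yeast genome the space between 2 genes may hold both promoters (divergent genes), both ends (convergent genes) or 1 of each (tandem genes).

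The sequences below, RefSeq's for ASM294v3, are those of RNA genes and gene gaps on which the account turns. U1, U2 and U5 are shown because polymerase II makes them and intervals of both lists covered each from end to end. Capitals mark the bases known to pair with an intron's 5′ splice site in U1 (ACTTACCTG) and with its branch site in U2 (GTAGTA), and the conserved loop of U5 (CCTTTTAC).
U1 (snu1): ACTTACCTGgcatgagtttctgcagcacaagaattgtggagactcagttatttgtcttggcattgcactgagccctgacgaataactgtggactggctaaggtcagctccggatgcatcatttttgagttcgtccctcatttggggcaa
U2 (snu2): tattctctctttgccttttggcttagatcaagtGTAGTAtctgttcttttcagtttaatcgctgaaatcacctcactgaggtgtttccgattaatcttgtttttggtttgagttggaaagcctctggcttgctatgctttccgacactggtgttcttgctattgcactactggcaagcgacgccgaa
U5 (snu5): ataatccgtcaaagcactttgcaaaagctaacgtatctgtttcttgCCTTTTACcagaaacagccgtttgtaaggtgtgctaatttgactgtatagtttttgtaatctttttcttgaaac
The U1 gene lies at chrII:3020205-3020353 on the plus strand, U2 at chrI:959370-959556 on the minus strand and U5 at chrII:3236867-3236986 on the plus strand. U14 and snR88 are shown because intervals met these snoRNA genes in abp1Δ cells alone. In U14 the capitals mark box C (TGATGA) and box D (CTGA), the short motifs that define its class. In snR88 CTGA was found at position 76 and TGATGA was not in these letters.
U14 (snoU14): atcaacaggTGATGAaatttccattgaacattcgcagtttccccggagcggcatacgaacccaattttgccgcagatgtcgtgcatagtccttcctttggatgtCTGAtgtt
snR88: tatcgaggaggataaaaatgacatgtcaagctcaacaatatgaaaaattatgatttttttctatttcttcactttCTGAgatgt
U14 lies at chrII:1308634-1308745 and snR88 at chrI:1316808-1316891, both on the plus strand. The last pair are the short gaps between divergent histone genes that intervals of both lists met. Capitals mark AACCCT, the histone box, here read on the opposite strand as AGGGTT and present 2 times in each gap.
hhf2-hht2 gap: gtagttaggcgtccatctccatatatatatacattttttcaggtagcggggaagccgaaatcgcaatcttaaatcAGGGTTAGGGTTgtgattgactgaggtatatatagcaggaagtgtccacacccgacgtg
hta1-htb1 gap: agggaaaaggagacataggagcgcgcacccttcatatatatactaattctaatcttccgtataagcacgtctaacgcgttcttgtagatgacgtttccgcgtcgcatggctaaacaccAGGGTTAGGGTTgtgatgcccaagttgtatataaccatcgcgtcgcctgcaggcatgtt
The first gap lies at chrII:1364985-1365118 and the second at chrIII:1412182-1412358, both given on the plus strand. The box was searched on both strands, and its 2 matches start at positions 76 and 82 of the first gap and at 119 and 125 of the second, counted from the left. Among windows of the same length tiled over all sequence outside protein-coding genes, 3.54% of those of 134 bp and 4.71% of those of 177 bp held the box. Windows of the matching length held, on either strand, the U1 letters in 0.073%, the U2 letters in 11.7% and the U5 letters in 0.542% of cases. For box C and box D the shares were 7.47% and 43.5% at the length of U14, and 5.51% and 34.6% at that of snR88.

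Most intervals outside genes were short, with scores near the lowest value, as were those inside. Every deposited interval had a score of 200 or more, a whole number whose unit and scaling are not given. The median score of outside intervals was 206 in abp1Δ (95% interval 204 to 207) and 205 in wild type (204 to 206), against 207 inside genes in each list. The 75th percentile was 221 in abp1Δ and 217 in wild type. A score of 300 or more was reached by 19 outside intervals in abp1Δ and 21 in wild type, which is 5.97% and 4.87% of them. Inside genes that share was 9.59% in abp1Δ and 8.96% in wild type. Median width was 5 bp in abp1Δ and 3 bp in wild type outside genes, and 4 bp in each list inside. Of outside intervals 31.4% in abp1Δ and 32.0% in wild type were 1 bp wide, against 26.5% and 28.0% of those inside. Outside intervals up to 25 bp from a gene edge numbered 43 in abp1Δ and 41 in wild type, with median scores of 203 and 207. Intervals just inside that edge numbered 43 and 49, with medians of 205 and 204. If genes are taken as their coding extent, without untranslated regions, the outside share becomes 26.8% in abp1Δ and 31.9% in wild type.

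In covered length the lists were close. Intervals of any kind covered 23976 bp outside genes in abp1Δ and 23625 bp in wild type, which is 0.818% and 0.806% of all outside bases. Protein-coding genes had 2.34% of their bases covered in abp1Δ and 2.11% in wild type. Joining outside intervals of 1 gap that lay within 100 bp of each other left 100 regions in abp1Δ and 114 in wild type. Their median highest score was 228 in abp1Δ and 225.5 in wild type.

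Outside intervals lay more often between convergent genes, and less often between divergent genes, than the space there would give. Convergent gaps held 83 of 318 outside intervals in abp1Δ (26.1%, 21.6 to 31.2) and 127 of 431 in wild type (29.5%, 25.4 to 33.9), but made up 9.17% of outside bases. Divergent gaps, which hold 2 promoters each, had 42 intervals in abp1Δ (13.2%, 9.92 to 17.4) and 71 in wild type (16.5%, 13.3 to 20.3), against 42.9% of outside bases. Tandem gaps had 193 in abp1Δ (60.7%) and 233 in wild type (54.1%), against 46.1% of the bases. These Wilson intervals cover counting error alone and treat neighbouring intervals as independent, which they are not. Counted by covered bases of the outside intervals, divergent gaps held 33.5% in abp1Δ and 31.7% in wild type, where the U2, U3, U5 and mrp1 intervals lie. By all covered bases, 2.13% of convergent, 0.835% of tandem and 0.554% of divergent sequence was covered in abp1Δ. In wild type the same shares were 1.998%, 0.839% and 0.549%. No interval lay in the 4 gaps at chromosome ends in either list.

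**Figure D1:**
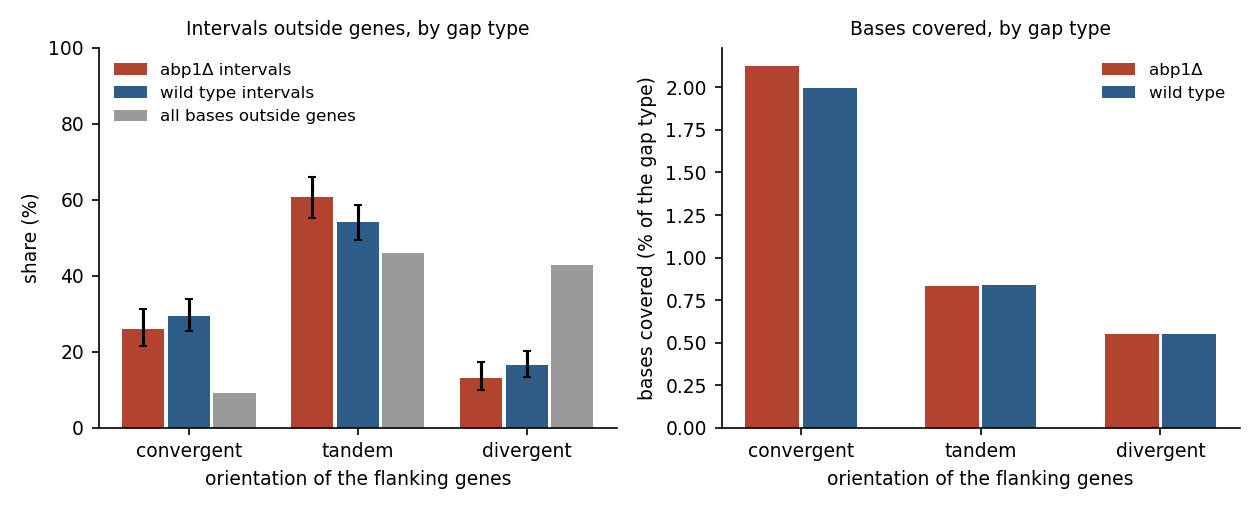
Share of outside intervals (left, percent, bars with 95% Wilson intervals) and share of bases covered (right, percent of all bases of that gap type) by the orientation of the flanking genes, for abp1Δ, wild type and, in grey, all bases outside genes. Convergent gaps hold 26.1% of abp1Δ and 29.5% of wild-type intervals on 9.17% of the bases.

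For most outside intervals a gene end, not a gene start, was the nearer landmark, chiefly among those in runs reaching into genes (below). The median distance from an outside interval to the nearest protein-coding gene end was 223 bp in abp1Δ (95% interval 148 to 318) and 293 bp in wild type (216 to 450). The median over all outside bases was 1186 bp. To the nearest gene start it was 653.5 bp in abp1Δ (598 to 708) and 659 bp in wild type (589 to 711), while the median over all outside bases was 444 bp. An end was the nearest gene edge for 220 of 318 intervals in abp1Δ (69.2%) and 263 of 431 in wild type (61.0%), against 34.0% of outside bases. Within 100 bp of a gene end lay 33.3% of outside intervals in abp1Δ and 30.9% in wild type, and within 100 bp of a gene start 5.97% and 7.89%. Leaving out intervals within 500 bp of a small stable RNA gene, a step chosen after the data were seen, brought the median distance to an end to 132.5 bp in abp1Δ and 147 bp in wild type.

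By count, most outside intervals lay nearest to a gene that itself carried an interval. The nearest gene itself carried an interval for 73.0% of outside intervals in abp1Δ and 67.3% in wild type, whereas 7.12% of the 5113 protein-coding genes carried one in abp1Δ and 7.18% in wild type. The first pair counts intervals, so a broken run counts once per interval, and the second counts genes. An outside interval that crosses a gene edge gives that gene an interval by definition, as 17 did in abp1Δ and 22 in wild type. Outside intervals that belonged to a run with steps of at most 100 bp reaching into a gene numbered 206 of 318 in abp1Δ (64.8%, 59.4 to 69.8) and 258 of 431 in wild type (59.9%, 55.2 to 64.4). By length these held 31.8% of outside interval bases in abp1Δ and 46.3% in wild type. A gene end was the nearest edge for 81.1% of these intervals in abp1Δ and 65.9% in wild type. Among the remaining outside intervals that share was 47.3% in abp1Δ (53 of 112) and 53.8% in wild type (93 of 173), against 34.0% of outside bases. Around genes that carried an interval, 27.9% of the bases in the first 50 bp past the end were covered in abp1Δ and 23.7% in wild type. That share was 7.88% and 7.68% at 451 to 500 bp. In the 50 bp before the start of such genes 6.64% was covered in abp1Δ and 6.28% in wild type. For genes without an interval, cover near the edges is low by definition, since an interval that crosses an edge places its gene in the other class.

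**Figure D2:**
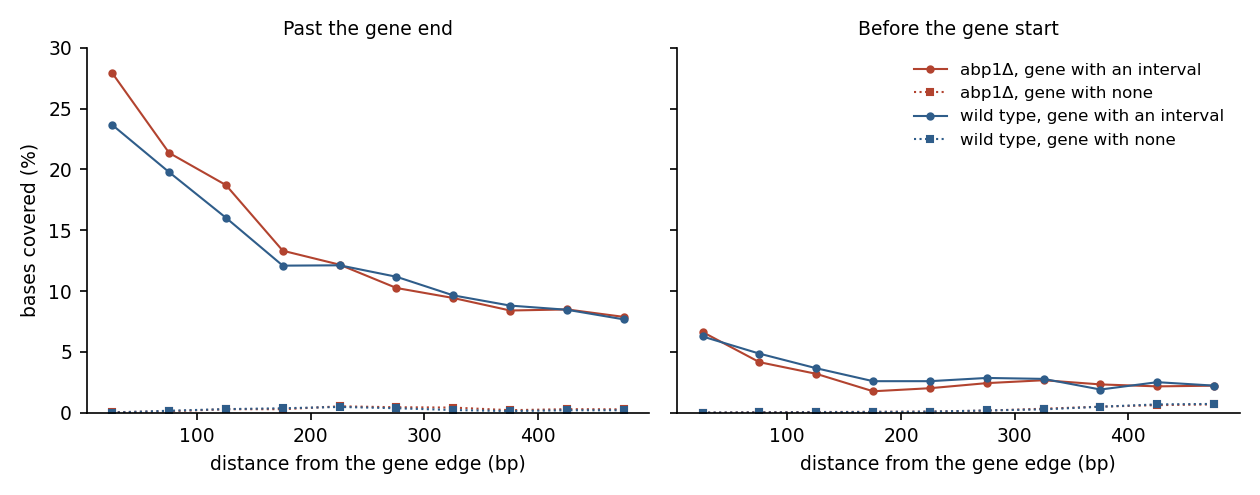
Percent of outside bases covered in steps of 50 bp past the nearest gene end (left) and before the nearest gene start (right), for genes with an interval (solid) and with none (dotted, low near the edge by definition) in abp1Δ and wild type. Coverage past the ends of genes with an interval is 27.9% in abp1Δ and 23.7% in wild type in the first step and lies under 8% in both lists in the last.

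Genes for cytosolic ribosomal proteins flanked a large share of the occupied gaps. A gap with at least 1 outside interval lay beside such a gene in 35 of 95 cases in abp1Δ (36.8%) and 40 of 106 in wild type (37.7%). Of all 3944 gaps 5.50% lie beside one. Of the 217 gaps beside such a gene, 16.1% held an outside interval in abp1Δ and 18.4% in wild type. Outside intervals nearest to a ribosomal protein gene numbered 62 in abp1Δ, 59 of them at its end, and 81 in wild type, 78 of them at its end. The highest lay past the end of rpl26, which encodes a large-subunit protein, with a score of 333 in abp1Δ and 364 in wild type. Between the convergent genes rps001 and rpl2701 intervals of any kind covered 36 of 110 bp in abp1Δ and 44 bp in wild type. Outside intervals made up 36 bp of this in abp1Δ and 1 bp in wild type. Occupied gaps beside ribosomal protein genes were shared in 21 cases.

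Other highly expressed gene groups lie beside fewer gaps and gave smaller counts, at similar shares of their own gaps. Gaps beside glycolytic and fermentative genes held outside intervals in 6 of 31 cases in abp1Δ (19.4%) and 7 in wild type (22.6%). Among them was the gap past tdh1, the glyceraldehyde-3-phosphate dehydrogenase gene, with 162 bp covered in abp1Δ and 213 bp in wild type. Past adh1, the alcohol dehydrogenase gene, 79 bp were covered in abp1Δ and 74 bp in wild type. These lengths are mostly intervals reaching in from the genes. Outside intervals made up 5 bp in abp1Δ and 3 bp in wild type past tdh1, and 5 bp in each list past adh1. For translation factor genes the count was 3 of 20 in each list (15.0%). Of all gaps, 2.41% held an outside interval in abp1Δ and 2.69% in wild type. None of the 25 gaps beside Tf2 retrotransposons, and none of the 238 annotated long terminal repeats, held one in either list.

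Of 14 gaps beside histone genes, 2 held an outside interval in abp1Δ (14.3%) and 4 in wild type (28.6%). In the hhf2-hht2 gap, between a histone H4 and a histone H3 gene, 134 of 134 bp were covered in abp1Δ and 44 bp in wild type. In abp1Δ a single interval ran across it from the flanking genes, so its midpoint lay in a gene and it was not an outside interval, while wild type had 7 short outside intervals there. The hta1-htb1 gap, between an H2A and an H2B gene, had 167 of 177 bp covered in abp1Δ and 102 bp in wild type. Outside intervals made up none of this in abp1Δ and 63 bp in wild type. The gaps of the other H3-H4 pairs, hhf1-hht1 and hht3-hhf3, hold 2 copies of the histone box each and had no covered base in either list. Past the end of the H2A gene hta2, 153 of 271 bp were covered in abp1Δ and 215 bp in wild type, with 2 and 48 bp of these in outside intervals. Past the H3 gene hht2, 15 bp were covered in abp1Δ and none in wild type. Past the H4 gene hhf1, 46 bp were covered in wild type, by an interval with a score of 716 reaching in from the gene, and none in abp1Δ. The coding sequences of the histone gene copies are near-identical, and how reads with several matches were placed is not given.

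Small stable RNA genes carried the highest outside scores next to a few lncRNAs. Here the group means snRNA and snoRNA genes, mrp1 (the RNA of RNase MRP), rrk1 (that of RNase P), srp7 and ter1. They were met by 37 of 318 outside intervals in abp1Δ (11.6%, 8.56 to 15.6) and 52 of 431 in wild type (12.1%, 9.32 to 15.5), while the group fills 0.448% of outside bases. Gaps that hold such a gene and an outside interval contained 40.6% of the outside bases covered in abp1Δ and 40.8% of those in wild type. These shares count all covered bases of the gaps, also those of intervals that met no such gene, as on mamRNA. Outside intervals that met such a gene covered 7743 of 17905 bp of all outside intervals in abp1Δ and 7714 of 19618 bp in wild type. No interval in either list met a ribosomal RNA or transfer RNA gene, nor snu6, the U6 gene made by polymerase III, nor srp7 (signal recognition particle RNA) or ter1 (telomerase RNA).

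Among snRNA genes, U1, U2, U4 and U5 were covered along their full length in both lists. The U2 interval had a score of 613 in abp1Δ and 698 in wild type. It reached 143 bp before the 5′ end and 637 bp past the 3′ end of U2 in abp1Δ, and 134 and 654 bp in wild type. For U5 the score was 592 in abp1Δ and 608 in wild type, with 533 and 480 bp covered past the 3′ end. U1 had 399 in abp1Δ and 331 in wild type, and its interval ended 61 and 55 bp past the gene. U4, which pairs with U6 before the spliceosome is activated, had 361 and 339 and ended 61 and 52 bp past the gene. In both lists the U2 and U5 intervals thus reached farther past the gene than the U1 and U4 intervals did.

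Among snoRNA genes the U3 genes stood highest. U3 guides early cleavages of the ribosomal RNA precursor. Its gene snu3 had a score of 1056 in abp1Δ and 1117 in wild type, and the second copy, snu32, had 1041 and 1184. The U3 copies share sequence, with 19.9% of the 50-base words of snu32 found elsewhere in the genome. SnR30, also needed for ribosomal RNA cleavage, lay under intervals with scores of 496 in abp1Δ and 596 in wild type. In abp1Δ that interval's midpoint fell in the neighbouring gene pdi4. Mrp1 and the adjoining snoZ16 shared 1 interval, with 525 in abp1Δ and 516 in wild type, and rrk1 had 452 and 384. In the cluster of snoZ genes between reg1 and psf3, snoZ4 was covered fully in both lists, under a score of 395 in abp1Δ and 361 in wild type. SnoZ3 had 100% of its bases covered in abp1Δ and 90% in wild type, and snoZ5 had 24.7% of its bases covered in abp1Δ and 55.3% in wild type. SnR90, snR93 and snoR61 also met intervals in both lists, with highest scores of 461, 301 and 279 in abp1Δ and 433, 328 and 285 in wild type. Of 47 snoRNA genes whose midpoint lies outside protein-coding genes, 12 met an interval in abp1Δ and 15 in wild type.

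**Figure D3:**
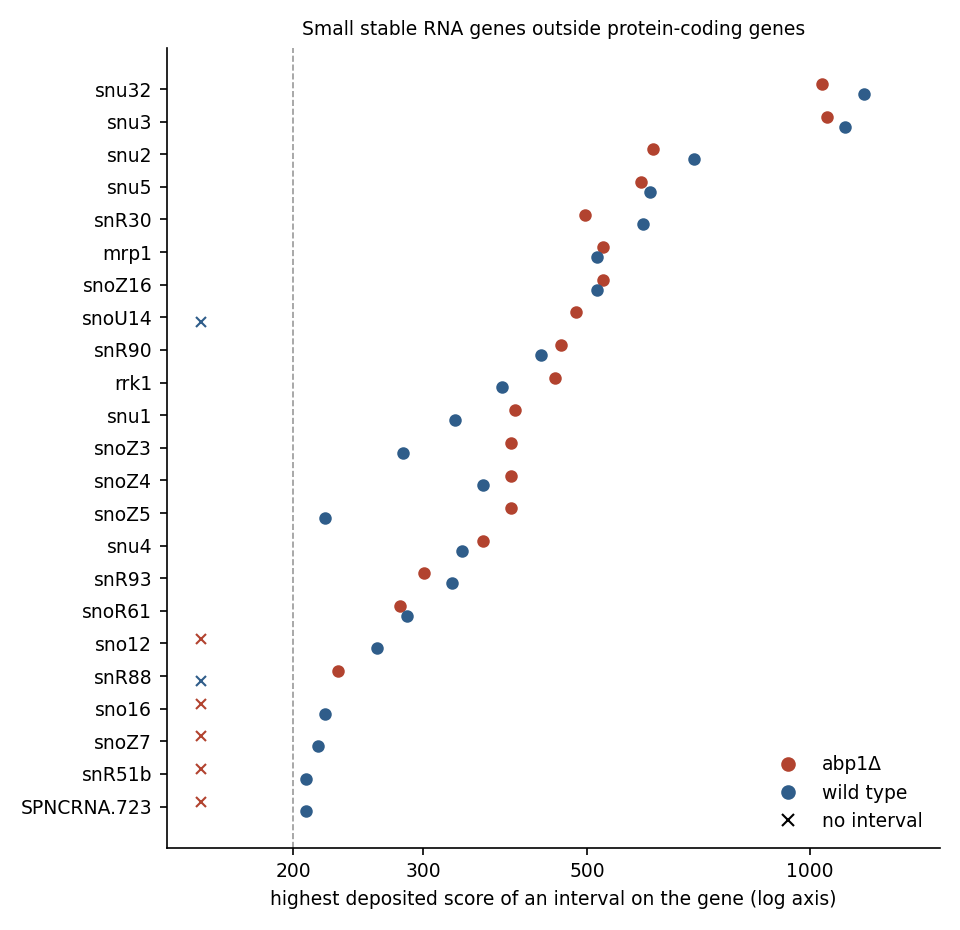
Highest deposited score (log axis) of an interval on each small stable RNA gene that lies outside protein-coding genes and met an interval in either list, for abp1Δ and wild type. Crosses mark genes with no interval, and the dashed line is the lowest score, 200. U3 genes reach 1041 to 1184, and genes met in a single list reach at most 260, except snoU14 with 483 in abp1Δ.

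A few snoRNA genes met an interval in a single list. The U14 gene shown above was covered fully in abp1Δ, by an interval with a score of 483, and met none in wild type, although the wild-type interval on the adjacent mamRNA stopped close before it. SnR88 had 64.3% of its bases covered in abp1Δ, by 6 intervals that reached a score of 230, and none in wild type. In wild type alone, sno12 had 124 bp covered with a score of 260, sno16 had 81 bp with 221, snoZ7 had 14 bp with 216 and snR51b, inside the longer snoRNA gene SPNCRNA.723, had 20 bp with 208. Apart from U14 these scores lie within 60 of the lowest deposited value, so a gene with no interval may hold signal just under it.

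**Figure D4:**
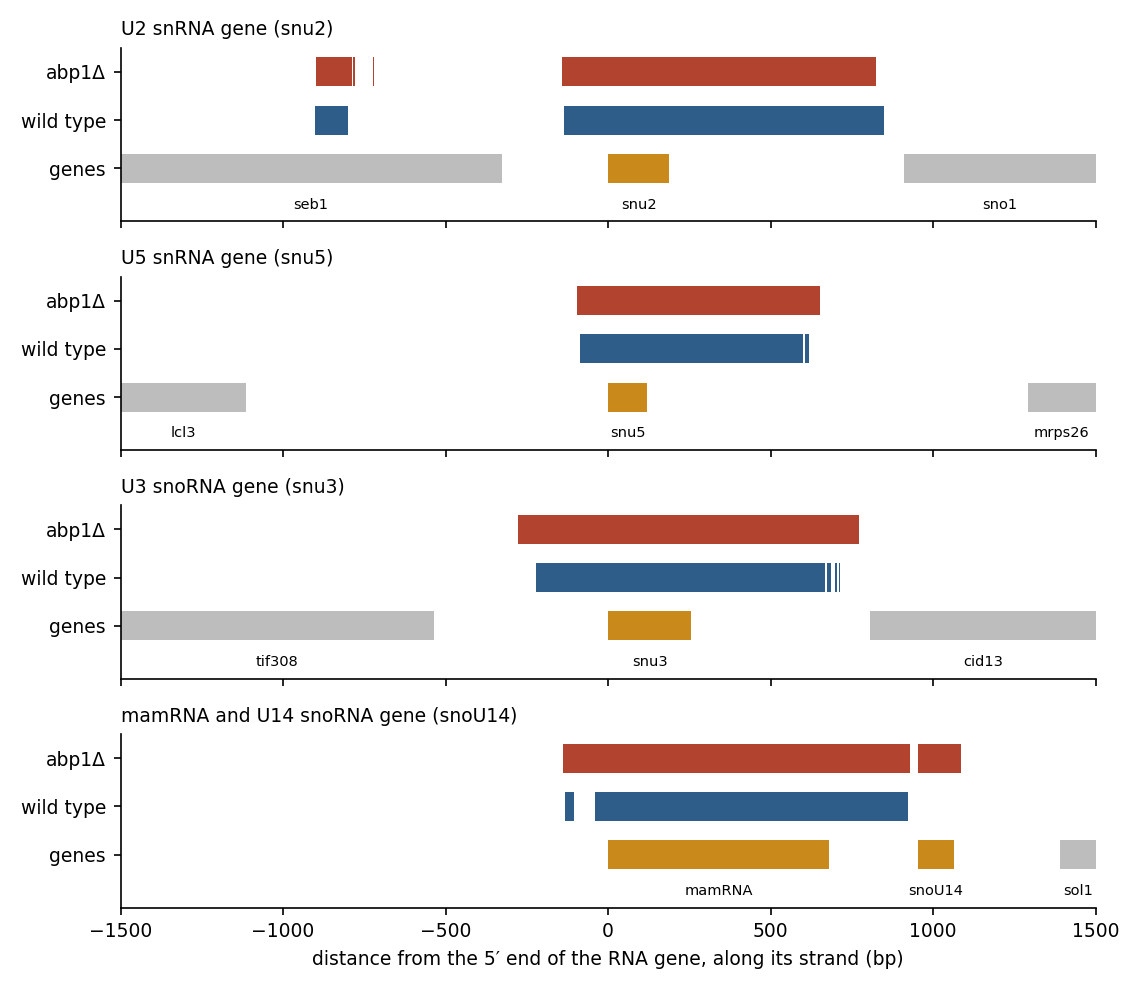
Intervals of abp1Δ (upper track) and wild type (middle track) around 4 RNA loci, by distance in bp from the RNA gene's 5′ end along its strand. The RNA genes are in amber and protein-coding genes in grey. The U2 interval runs to 823 bp in abp1Δ and 840 bp in wild type, and an interval on snoU14 is seen in abp1Δ alone.

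The outside interval with the highest score of each list lay on a long non-coding RNA gene. The interval on prl53, a polyadenylated non-coding RNA at chrI:4008054-4009905, had a score of 1924 over 2151 bp in abp1Δ and 1996 over 2167 bp in wild type. It covered the whole of prl53 and of the small protein-coding gene SPAC27E2.11c. These 2 genes overlap on the same strand, so their signals cannot be told apart. MamRNA, a non-coding RNA associated with the meiotic regulators Mmi1 and Mei2, lies at chrII:1307681-1308359. Its interval had 1304 in abp1Δ and 934 in wild type. The region between sod1, the superoxide dismutase gene, and pro1 reached 667 in abp1Δ and 416 in wild type, where intervals ran from sod1 across its start and onto SPNCRNA.2443. Of that lncRNA 60.2% was covered in abp1Δ and 41.6% in wild type.

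Taken as a class, which includes mrp1 and rrk1, lncRNA genes were met below the share of space they fill in abp1Δ. In wild type they were met at that share, within counting error, only with intervals on small stable RNA genes counted. LncRNA genes were met by 137 outside intervals in abp1Δ (43.1%, 37.8 to 48.6) and 237 in wild type (55.0%, 50.3 to 59.6), and they fill 53.9% of outside bases. Intervals that met an lncRNA gene and no small stable RNA gene made up 38.4% in abp1Δ (33.2 to 43.8) and 46.9% in wild type (42.2 to 51.6). In all, 55 of 7133 lncRNA genes met an outside interval in abp1Δ and 75 in wild type, and 43 did so in both. Of the 7133, 2275 have their midpoint outside protein-coding genes, and the genes met include some that do not. No RNA gene of any class was met by 159 outside intervals in abp1Δ and 177 in wild type.

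A few gaps beside genes for phosphate and glycerophosphodiester uptake were chosen after their values were seen. Nc-tgp1 is transcribed across the promoter of tgp1, a glycerophosphodiester transporter gene that it represses. In the gap before tgp1, 8 outside intervals in abp1Δ covered 123 bp with a highest score of 245, and 8 in wild type covered 441 bp with 327. In the gap before pho84, the phosphate transporter gene repressed by the lncRNA prt2, 106 bp were covered in abp1Δ and 145 bp in wild type. Prt2 as a whole, which extends over pho84, had 1569 bp covered in abp1Δ (45.8%) and 1322 bp in wild type (38.6%). Past the end of pho84 the outside intervals met no lncRNA gene, with 100 bp under 15 outside intervals in abp1Δ and 6 bp under 4 in wild type. Before pho841, another phosphate transporter gene, wild type had, on no lncRNA gene, an interval of 191 bp with a score of 264 and abp1Δ had none. Pho841 itself had 266 bp covered in abp1Δ and 237 bp in wild type.

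Between the lists, outside intervals were shared about as often as intervals at large, or less often. In abp1Δ 127 of 318 outside intervals overlapped a wild-type interval by at least 1 bp (39.9%, 34.7 to 45.4), against 42.8% of the whole abp1Δ list. In wild type 200 of 431 overlapped an abp1Δ interval (46.4%, 41.7 to 51.1), against 55.9% of the whole wild-type list. By bases, 77.1% of outside interval length was shared in abp1Δ and 77.4% in wild type. Outside intervals with no interval of the other list within 1000 bp numbered 45 in abp1Δ (14.2%), against 19.8% of the whole list, and 54 in wild type (12.5%), against 12.9%. Unshared intervals were lower. Their median score was 204 in abp1Δ and in wild type, while that of shared ones was 211 in abp1Δ and 206 in wild type.

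By gap, 138 gaps held an outside interval in at least 1 list, and 63 held one in both. In those 63 gaps 17620 bp were covered in abp1Δ and 17662 bp in wild type. Abp1Δ had more bases covered in 29 of them, wild type in 33, and they were equal in 1. Of 138 gaps, 84 had covered bases in both lists, and the median ratio of abp1Δ to wild-type covered length over these was 1.01. Within 1.5-fold were 54 of the 84, and 19 of the 21 among them with at least 300 bp covered in either list. At least 300 bp in a single list, with no covered base in the other, were found between SPAC27D7.09c and SPAC27D7.11c (413 bp, abp1Δ), between naa20 and rpl1201 (345 bp, abp1Δ) and before csx1 (540 bp, wild type). 

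**Figure D5:**
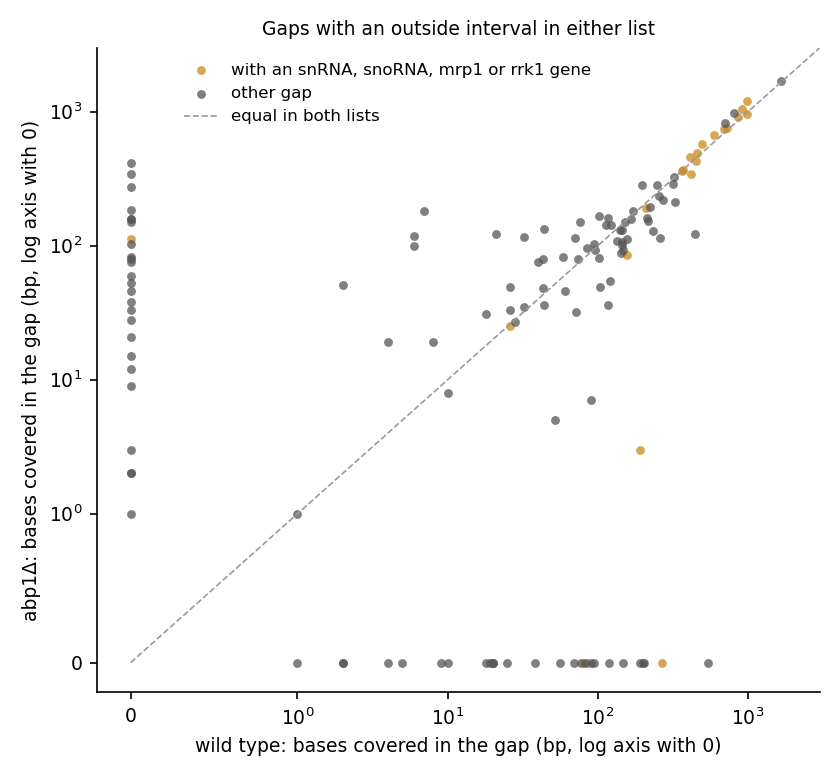
Bases covered by intervals in each of 138 gaps that held an outside interval in at least 1 list, abp1Δ on the vertical and wild type on the horizontal axis (bp, log axes with 0 added). Amber points are the 22 gaps with small stable RNA genes, of which 18 held an outside interval in both lists, and the dashed line marks equal length. Points on the axes are gaps covered in a single list.

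In 26 gaps abp1Δ had outside intervals and wild type had no covered base. Their covered bases summed to 2462 bp, with a median of 56 bp, and 12 of these gaps lay beside a ribosomal protein gene. The sum includes bases of intervals reaching in from genes, which had scores up to 4092. The highest outside interval was between SPAC27D7.09c and SPAC27D7.11c, genes of the But2 family, where 3 intervals covered 413 bp at chrI:4526415-4526829 with a score of 648. Within that stretch 92.9% of 50-base words occur again in the genome, in the 2 flanking genes, where abp1Δ intervals had scores of 648 and 664 and wild type had no interval. It was the one abp1Δ region of 50 bp or more with over 50% of its words repeated, among 55, and wild type had none among 63. The gap past pil1, which encodes a core protein of eisosomes at the plasma membrane, had 276 bp covered in abp1Δ with a score of 344. Pil1 itself had 2207 bp covered in abp1Δ and 1179 bp in wild type. Before scw1, an RNA-binding protein gene, 28 short outside intervals covered 185 bp in abp1Δ. Scw1 had 1420 bp covered in abp1Δ and none in wild type. On SPNCRNA.6763, in the gap past SPCC794.16, abp1Δ intervals reached a score of 325 over 73 bp. In the 102 bp between the starts of the ribosomal protein genes rps1602 and rpl13, 83 bp were covered in abp1Δ with a score of 294.

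In 28 gaps wild type had outside intervals and abp1Δ had no covered base. They summed to 2414 bp, with a median of 47 bp, and their outside intervals had scores up to 277, while intervals reaching in from genes had up to 368. Of these gaps 13 lay beside a ribosomal protein gene. The widest cover was before csx1, which encodes an RNA-binding protein of the oxidative stress response, where 540 bp were covered, 413 of them by 38 short outside intervals and the rest by an interval that reached in from csx1. Csx1 itself had 1205 bp covered in abp1Δ and 1086 bp in wild type. Between SPCC1672.09 and mis16, where sno12 lies, 269 bp were covered in wild type with a score of 262. Past pac2, a regulator of sexual development, 9 outside intervals covered 190 bp in wild type. In the gap past SPAC806.11, which the lncRNA prl3 overlaps in part, 77 bp were covered in wild type with a score of 249. In the gap before ecl2, 201 bp were covered in wild type, where ecl2 itself had 998 bp covered, and abp1Δ had no interval on ecl2.

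Among gaps covered in a single list, the split between abp1Δ and wild type differed between chromosomes, on small counts. Of 30 gaps on chromosome III with an outside interval in either list, abp1Δ alone covered 10 and wild type alone 3. On chromosome I these counts were 10 and 15 of 60 gaps, and on chromosome II 6 and 10 of 48. The chromosome III gaps covered in abp1Δ alone, except that past ssa2, lay between chrIII:250195 and chrIII:799417. Among them were the gaps by pil1, scw1 and naa20 named above. Within that stretch wild type alone covered the gap between SPCC1672.09 and mis16. The shares that follow are for whole chromosomes and were not split by stretch. Of outside bases on chromosome III, 0.675% were covered by abp1Δ intervals and 0.453% by wild-type intervals. On chromosome I the shares were 0.952% in abp1Δ and 1.02% in wild type, and on chromosome II 0.761% and 0.795%. Within genes of chromosome III 2.67% of bases were covered in abp1Δ and 2.03% in wild type, so the chromosome III difference was present inside genes as well. Its part in the gaps named above was not tested.

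Covered length and the presence of an interval both depend on the lowest score of 200, and read depth and scaling are unknown, so a gap without an interval may hold signal below that value. With 1 library per genotype, the spread between replicates of one genotype is unknown, and a difference between the lists cannot be told apart from one between libraries.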

How the data were processed

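Chromatin immunoprecipitation with an antibody against Ser5P polymerase II was done in abp1Δ and wild-type cells, with an input for each, 4 samples in all. Per the labels' protocols, cells were fixed for 15 min, quenched with 125 mM glycine and sheared to 250 to 400 bp, and the library kit was one meant for RNA. Reads were aligned with Bowtie (0.12.5, per the submitters' processing notes). Not given in the sources used here are the caller, the build, the role of the inputs and where reads that match several places went. The inputs were not analysed here. The deposited lists hold 4 columns without a header: chromosome, start, end and the authors' score, a whole number of at least 200 whose scaling is unknown. Depth per sample is unknown.

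Intervals were set on the RefSeq annotation of ASM294v3, past whose chromosome ends no interval reached, and positions are 1-based. A gap is a run of bases in no protein-coding gene. Scores describe intervals within a list, and values of both lists stand side by side without a test. Shares carry 95% Wilson intervals and medians 95% order-statistic intervals, which cover counting error only. Python 3.11.15, NumPy 2.4.6 and SciPy 1.17.1 were used, and the interval rules were tested on simulated data. Members and gene lists were chosen with earlier results of these data known. Regions named are, in each list, the 10 with the highest score, the 5 with most covered bases, those on small stable RNA genes and the 5 highest with no interval of the other list within 1000 bp. Other named gaps were chosen after their values were seen, as were the RNA motifs in capitals. Alternatives changed the gene extent, minimum width, score, overlap and joining distance.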

Additional observations from a re-analysis of the deposited data

How the results depend on the processing

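No paired analysis was possible because each genotype has 1 list and no test was made. Of 82 values under alternatives, 45 stayed within the 95% interval of the value given above and 37 did not. With genes cut to their coding extent, 26.8% of intervals in abp1Δ and 31.9% in wild type were outside. With the full gene extent, 9.59% of covered bases in abp1Δ and 10.4% in wild type were outside. Among the upper 50% by score the outside share in wild type was 11.7%.

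Sharing was 73.9% in abp1Δ and 69.1% in wild type when an interval of the other list within 100 bp counted, which turns the order of the lists. It was 53.0% and 51.9% in the upper 50% by score, 77.1% and 77.4% by covered bases, and 59.0% and 56.1% by regions. Without intervals near small stable RNA genes, an alternative chosen after seeing the data, it was 33.9% and 41.2%.

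By covered bases, divergent gaps held 33.5% in abp1Δ and 31.7% in wild type, tandem gaps 46.7% and 47.0%, and convergent gaps 19.8% and 21.3%. In the upper 50% by score of wild type, divergent gaps held 21.2% and tandem gaps 46.0%. Counted by gaps, the tandem share in abp1Δ was 53.7%. Without intervals near small stable RNA genes, tandem gaps held 67.8% and convergent gaps 21.2% in abp1Δ, and the median distance to a gene end was 132.5 bp in abp1Δ and 147 bp in wild type. Allowing 50 bp to an lncRNA gene gave 50% in abp1Δ and 60.6% in wild type. The median score was 211 and 209 for intervals of at least 2 bp, and 228 and 225.5 for regions. Joining over at most 50 bp tied 59.1% of outside intervals to a gene in abp1Δ and 42.2% in wild type, and over at most 200 bp 75.8% in abp1Δ. The cause of these shifts was not tested.

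The lowest score of 200 and the unknown depth limit what an absent interval shows.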

Other observations

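Covered sequence was richer in G and C than all sequence of its kind, outside or inside genes. Outside genes, 35.4% of covered bases in abp1Δ and 35.9% in wild type were G or C, against 32.0% of all outside bases. Inside genes the shares were 43.8% in abp1Δ and 43.4% in wild type, against 37.3% of all gene bases. Of 32 annotated pseudogenes 1 was met, SPBC31A8.02 between rtn1 and but2, with 109 of 360 bp covered in abp1Δ and none in wild type.

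HomolD (CAGTCACA, searched on both strands), the promoter box of ribosomal protein genes, was found in 38 of 58 divergent gaps with a ribosomal protein gene (65.5%) and in 24 of 1198 other divergent gaps (2.003%). Only exact matches were counted. None was in the 102 bp between rps1602 and rpl13, where abp1Δ alone had an outside interval, but that gap holds CAGTCACG, which differs in the last letter.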
